A study of Mus musculus with 8 samples.

Results

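The genes of glycolysis and of the response to low oxygen were examined as a list of 37 symbols, matched to the array through the RefSeq accession of each probe, with the brightest probe taken for each gene. All 37 had a probe, among 21154 genes with one, and 36 were bright enough to test, among 13498 genes tested. The exception was Mxi1, a MAX partner that represses MYC targets, which was above background on 1 Foxp3-KO array alone. RNA of mouse thymocytes was read on 8 microarrays with a single dye. All cells were CD4 single-positive, a late thymic stage without CD8. Cells were lysed fresh, without culture, and the design gives 2 biological replicates for each of 4 sorted populations. The group WT Tconv holds conventional T cells of wild-type mice with little CD25. The group WT Treg holds regulatory T cells of wild-type mice, sorted by Foxp3, the factor that defines their lineage. Nr4a-TKO were Treg precursors (preTreg) of the genotype labelled Nr4a-TKO, named after the Nr4a orphan nuclear receptors, and the gate took cells with much CD25, GITR and Nr4a3. Foxp3-KO were preTreg of the genotype labelled Foxp3-KO, gated on much CD25 and on signal from a Foxp3 reporter. The labels name no strain, age, deleting Cre or mouse line for any group, and there was no wild-type precursor group. Genotype and sort gate therefore cannot be told apart in any comparison of a precursor with a wild-type group. The precursor groups were also gated differently from each other, so the same limit holds for Nr4a-TKO against Foxp3-KO.

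Glycolysis splits glucose in the cytosol into pyruvate, which either enters mitochondria through the pyruvate dehydrogenase complex or is reduced to lactate by lactate dehydrogenase. HIF-1 alpha, encoded by Hif1a, is a transcription factor that prolyl hydroxylases (the Egln genes) mark for destruction by the Vhl ubiquitin ligase when oxygen is present, and that switches on most glycolytic genes when it is stable. Activated T cells raise glycolysis, and Treg cells are known to depend on it less than effector T cells do.

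Values below are log2 signal after each array's 75th percentile was subtracted, so 0 is that percentile, and each value belongs to 1 probe and is not compared with that of another gene. Differences are means of 2 arrays minus means of 2 arrays, given ± SE from limma, and a difference is called where its p-value, adjusted over all 13498 genes by Benjamini-Hochberg, was under 0.05. The design text calls the replicates biological without naming animals, and with 2 arrays a group the p-values rest on a spread estimated over all 4 groups. Calls that did not hold when 1 of the 8 arrays was left out are given with those arrays.

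On each array 47.7% to 52.1% of probes were well above background, and replicates correlated across genes at 0.976 (Foxp3-KO) to 0.997 (WT Tconv). The spread between replicates over the members, as an SD in log2 units, was smallest in WT Tconv (0.0861) and WT Treg (0.167). It was larger in Nr4a-TKO (0.291) and Foxp3-KO (0.345). All 8 arrays lay on 1 slide, WT Tconv and Nr4a-TKO in 1 row, WT Treg and Foxp3-KO in the second. Row and group cannot be told apart in comparisons between rows. The probes of the targeted genes did not all mirror the labels. Nr4a1 read 7.73 and 7.96 and Nr4a2 3.72 and 3.87 on the arrays labelled Nr4a-TKO, against 7.28 and 7.62 and 1.6 and 1.79 in WT Treg. Nr4a3 read -0.42 and -0.12 in Nr4a-TKO, -0.36 and 1.01 in WT Treg and -1.53 and -1.57 in WT Tconv, and Nr4a-TKO differed from WT Treg by -0.60 (adjusted p = 0.342). Foxp3 read 1.97 and 1.74 on the arrays labelled Foxp3-KO, against -3.4 and -3.79 in WT Tconv and 5.0 and 4.72 in WT Treg. The labels do not say which exons were deleted, and a probe outside them would not see the deletion, so no genotype was checked this way. Both precursor groups are named as labelled throughout, and any direction drawn from them rests on those labels.

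Markers of other cells differed between the groups. The 6 B cell markers summed to 0.542 and 0.580 times the array's 75th percentile in WT Tconv, 3.72 and 2.90 in WT Treg, 43.0 and 11.3 in Nr4a-TKO and 11.6 and 1.30 in Foxp3-KO. In WT Tconv, 5 of the 6 (Cd79a, Ms4a1, Pax5, Ebf1 and Blk) were above background on neither array, and so were Cd79a, Pax5, Ebf1 and Blk in WT Treg and Pax5 and Blk in Foxp3-KO. The brightest, Cd79b, read -1.26 and -1.13 in WT Tconv, 1.78 and 1.46 in WT Treg, 4.83 and 3.11 in Nr4a-TKO and 2.96 and -0.05 in Foxp3-KO. The 12 myeloid markers summed to 45.2 and 47.2 in WT Tconv, 62.7 and 48.2 in WT Treg, 128 and 84.4 in Nr4a-TKO and 125 and 59.4 in Foxp3-KO, and Adgre1, C1qa and C1qc were above background on neither WT Tconv array. In each precursor group replicate 1 thus held more of both marker sets than replicate 2. The 8 T cell markers, such as Lck and Cd3e, were above background on every array and summed to between 1208 and 1487. The part of other cells in the member results was not tested beyond counts without those 2 precursor arrays, which are given with the counts, and in such bulk RNA fewer cells of a type and less RNA per cell cannot be told apart.

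The members moved in both directions between populations. Calls against WT Tconv were most frequent in the group labelled Nr4a-TKO, as they were over all tested genes. The members' shares were 69.4% in Nr4a-TKO, 50% in WT Treg and 33.3% in Foxp3-KO, beside 48.2%, 35.4% and 24.6% of all genes. Against WT Tconv, 17 members were called higher in Nr4a-TKO, beside 21.4% of all tested genes, and 8 lower, beside 26.8%, out of 36 tested. The called higher genes ran through the upper and middle steps of glycolysis (Hk2, Pfkl, Pfkp, Aldoa, Aldoc, Tpi1, Gapdh, Pgk1, Pgam1) and the oxygen-sensing genes Hif1a and Egln3, whereas Pdk1, Pdha1, Ldhb and Pfkm were called lower. In WT Treg against WT Tconv, 9 were called higher and 9 lower, beside 13.8% and 21.5% of all genes, with Eno2, Eno3, Hk2 and Hif1a among the higher and Pgk1, Pgam1, Eno1, Pkm and Ldha among the lower. Scaling the arrays by their median turned that split into 6 higher and 14 lower. In Foxp3-KO against WT Tconv, 10 were called higher and 2 lower, beside 10.4% and 14.3%, or 8 and 3 with median scaling. Median scaling moved the median difference of all genes by -0.15 in both of these comparisons.

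Between the other pairs of groups, 15 members were called higher and 6 lower in Nr4a-TKO against WT Treg, beside 19.4% and 15.9% of all genes. In Foxp3-KO against WT Treg, 7 were called higher and 1 lower, beside 3.48% and 2.93%, but these calls were not steady: median scaling left 2 higher and 1 lower, a limma fit of these 2 groups alone left 0 and 0 (12 and 1 at an unadjusted p under 0.05), and no single call among them held in all 8 fits with 1 array left out. In Nr4a-TKO against Foxp3-KO, 13 were called higher and 9 lower, beside 18% and 15.7%. The share of members called higher was above the share of all genes in all 6 comparisons, while the share called lower lay near the background in most, such as 16.7% in Nr4a-TKO against WT Treg, below it in Foxp3-KO against WT Tconv (5.56%) and above it between the precursor groups (25%). These shares are a description and carry no test. Against WT Tconv, the median difference over the 36 members was 0.29 in Nr4a-TKO, 0.15 in Foxp3-KO and -0.10 in WT Treg, beside -0.10, -0.10 and -0.09 over all genes tested. These 3 comparisons share their WT Tconv arrays.

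Leaving out the precursor arrays with more B cell and myeloid signal (Nr4a-TKO replicate 1 and Foxp3-KO replicate 1 together), a choice made after seeing the data, gave 18 higher and 7 lower in Nr4a-TKO and 9 and 2 in Foxp3-KO against WT Tconv, and 16 and 6 in Nr4a-TKO and 6 and 1 in Foxp3-KO against WT Treg. In either direction, the calls against WT Tconv came to 18 in WT Treg, beside 35.4% of all genes, 25 in Nr4a-TKO, beside 48.2%, and 12 in Foxp3-KO, beside 24.6%. Against WT Treg they came to 21 in Nr4a-TKO, beside 35.4%, and 8 in Foxp3-KO, beside 6.41%, and between the precursor groups to 22, beside 33.8%. Of these, those that stayed in every fit with 1 array left out were 15 of 25 in Nr4a-TKO, 6 of 18 in WT Treg and 2 of 12 in Foxp3-KO against WT Tconv. They were 16 of 21 in Nr4a-TKO against WT Treg and 11 of 22 between the 2 precursor groups. The WT Tconv arrays weighed most. Shares of all genes called in the fits with arrays left out are not given here. The counts of members in those fits therefore show no feature particular to the members. Without WT Tconv replicate 1 or replicate 2, respectively, the counts against WT Tconv were 2 and 3 higher with 4 and 4 lower in WT Treg, 11 and 12 higher with 4 and 4 lower in Nr4a-TKO, and 2 and 2 higher with 0 and 0 lower in Foxp3-KO, where 2 were lower at an unadjusted p under 0.05 in limma in both fits. Against WT Treg, Foxp3-KO had 0 higher without either WT Tconv or either WT Treg array and 1 without either Nr4a-TKO array, whereas 7 were called without either of its own. The 4 fits with 0 had 11 to 14 at an unadjusted p under 0.05 in limma. Without either WT Treg array, 4 or 5 were called higher in WT Treg, and 6 higher and 1 lower in Foxp3-KO, against WT Tconv. Foxp3-KO also had 1 lower without its replicate 1. Without Nr4a-TKO replicate 1, 5 were called lower against WT Tconv and 3 against Foxp3-KO, and the latter count was 5 without either WT Tconv array.

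**Figure D1:**
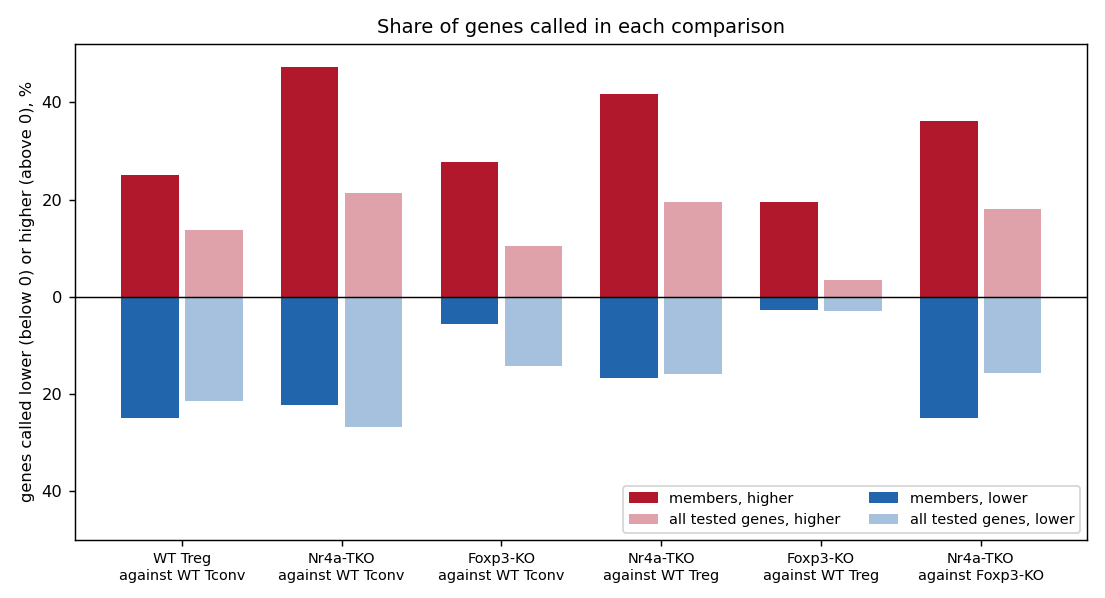
Percentage of the 36 tested members (dark) and of all 13498 tested genes (pale) called higher (above 0) or lower (below 0) at an adjusted p under 0.05 in each of the 6 comparisons. The members' bars for higher calls are taller than those of all genes in each comparison, with 47.2% against 21.4% in Nr4a-TKO against WT Tconv, while their bars for lower calls are shorter there, 22.2% against 26.8%.

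**Figure D2:**
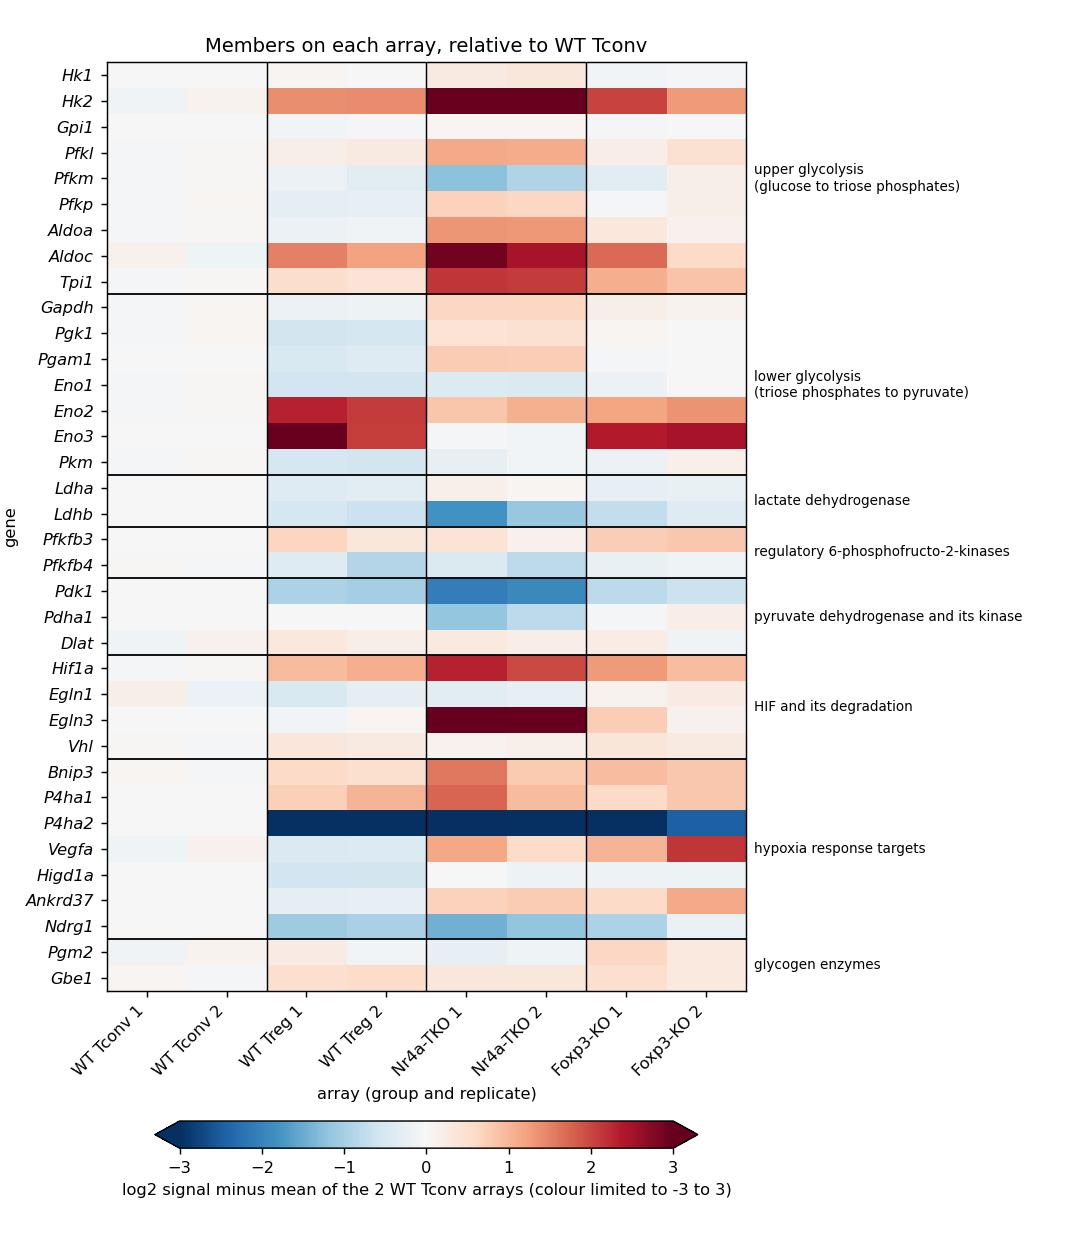
Log2 signal of the 36 tested members on each of the 8 arrays minus the mean of the 2 WT Tconv arrays, ordered by role, with colours limited to -3 to 3. Hk2 and Egln3 pass the upper limit in Nr4a-TKO, and P4ha2 is below WT Tconv on all 6 other arrays. Eno3 is high in WT Treg and Foxp3-KO, which shared a slide row, but not in Nr4a-TKO.

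The 5 members with the smallest adjusted p in Nr4a-TKO against WT Tconv were Pdk1, Tpi1, Egln3, Aldoa and Hk2, and the 250 bases before their first RefSeq start (GRCm38.p6) are printed because the results for glycolysis and oxygen sensing turn on these genes and HIF is known to bind a short core in such regions. Capitals mark ACGTG or GCGTG on either strand, which on the printed strand also reads CACGT or CACGC, and sequences run 5′ to 3′ on the gene's strand.
Pdk1 (chr2:71872974-71873223, plus strand): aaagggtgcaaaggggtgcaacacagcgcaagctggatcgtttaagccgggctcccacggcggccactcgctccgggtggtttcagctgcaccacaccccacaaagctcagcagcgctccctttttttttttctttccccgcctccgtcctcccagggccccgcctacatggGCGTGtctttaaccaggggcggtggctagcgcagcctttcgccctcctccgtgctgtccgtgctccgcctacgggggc
Tpi1 (chr6:124814159-124814408, minus strand): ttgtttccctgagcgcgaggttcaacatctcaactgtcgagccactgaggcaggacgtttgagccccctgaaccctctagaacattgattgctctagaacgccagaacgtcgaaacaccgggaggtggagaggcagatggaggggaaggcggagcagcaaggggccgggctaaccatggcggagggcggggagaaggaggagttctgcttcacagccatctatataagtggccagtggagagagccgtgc
Egln3 (chr12:54203875-54204124, minus strand): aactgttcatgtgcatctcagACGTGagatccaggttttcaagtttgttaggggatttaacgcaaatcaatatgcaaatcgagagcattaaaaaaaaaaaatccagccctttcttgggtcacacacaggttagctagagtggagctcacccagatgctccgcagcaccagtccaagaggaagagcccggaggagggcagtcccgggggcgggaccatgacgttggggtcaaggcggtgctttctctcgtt
Aldoa (chr7:126800448-126800697, minus strand): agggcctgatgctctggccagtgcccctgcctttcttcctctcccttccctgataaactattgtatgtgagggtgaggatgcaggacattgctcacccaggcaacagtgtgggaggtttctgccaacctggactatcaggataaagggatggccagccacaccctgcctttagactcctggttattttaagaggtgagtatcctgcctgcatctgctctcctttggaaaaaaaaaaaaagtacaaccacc
Hk2 (chr6:82774455-82774704, minus strand): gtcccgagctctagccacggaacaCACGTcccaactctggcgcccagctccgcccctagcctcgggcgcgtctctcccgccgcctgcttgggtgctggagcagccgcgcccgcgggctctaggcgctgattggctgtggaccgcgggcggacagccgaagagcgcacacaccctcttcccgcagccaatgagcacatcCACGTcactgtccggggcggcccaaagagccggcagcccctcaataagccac

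Hk2 held the core at positions -226 and -52 from its start, Pdk1 at -78 and Egln3 at -229. The windows of Tpi1 and Aldoa held no match, although 2 of the 3 promoters listed for Aldoa did. Of the 36 members with an entry (all but Ndrg1), 25 held a match in this window, or 69.4%, beside 54.1% of 10793 genes tested on the arrays and 38.6% of all 27025 first promoters. Members' windows were also richer in G and C, 60.6% beside 58.9% and 53.0%, and both motifs contain CG. With ACGTG alone the counts were 14 of 36 members, or 38.9%, beside 21.2% and 16.6%. A match was found in 12 of 17 members called higher, 7 of 7 called lower and 6 of 11 not called in Nr4a-TKO against WT Tconv. A match is a description of letters and not a site.

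The steps from glucose to triose phosphates were higher in Nr4a-TKO than in the other 3 groups for most enzymes. Of 9 genes, 7 were called higher and 1 lower in Nr4a-TKO against WT Tconv, and the same counts were found against WT Treg and against Foxp3-KO. Of all genes, 21.4%, 19.4% and 18% were called higher and 26.8%, 15.9% and 15.7% lower in these 3 comparisons. Against WT Treg, 3 of the 8 calls did not hold with 1 array left out. Hk1 was lost without either WT Tconv array, either WT Treg array or either Nr4a-TKO array (adjusted p = 0.0737 to 0.133), and its 2 probes differed in sign there (0.27 and -0.08). Aldoc was lost without either WT Tconv array, either WT Treg array or either Nr4a-TKO array (adjusted p = 0.0792 to 0.175), and Pfkm without either WT Tconv array, either WT Treg array or Nr4a-TKO replicate 1 (adjusted p = 0.0615 to 0.126). Against Foxp3-KO, Aldoc was lost without either WT Tconv array, either WT Treg array or either Nr4a-TKO array (adjusted p = 0.0531 to 0.13), Hk1 without Nr4a-TKO replicate 2 (adjusted p = 0.0582), and Pfkm and Pfkp without Nr4a-TKO replicate 1 (adjusted p = 0.0862 and 0.0549). WT Treg had 3 higher and 0 lower against WT Tconv, which became 2 and 2 with median scaling, and Foxp3-KO had 2 and 0. Of all genes, 13.8% were called higher and 21.5% lower in WT Treg, and 10.4% and 14.3% in Foxp3-KO. Gpi1, the isomerase that follows hexokinase, read between 7.03 and 7.19 on all 8 arrays and was called in no comparison.

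Hk2, the inducible hexokinase that traps glucose in the cell as glucose 6-phosphate, read -3.01 and -2.82 in WT Tconv, -1.52 and -1.49 in WT Treg, 0.40 and 0.35 in Nr4a-TKO and -0.88 and -1.64 in Foxp3-KO. Both WT Tconv arrays were the lowest, both Nr4a-TKO arrays the highest, and WT Treg and Foxp3-KO overlapped between them. The difference from WT Tconv was 3.29 ± 0.24 (SE, adjusted p = 0.00075) in Nr4a-TKO, or 9.8-fold. It was 1.41 ± 0.24 (SE, adjusted p = 0.00967) in WT Treg and 1.66 ± 0.24 (SE, adjusted p = 0.0105) in Foxp3-KO. Nr4a-TKO was also above WT Treg (1.88 ± 0.24, adjusted p = 0.00447) and Foxp3-KO (1.64 ± 0.24, adjusted p = 0.00763). The call in WT Treg was lost without either WT Tconv array (adjusted p = 0.0502 to 0.0663), and that in Foxp3-KO without either WT Tconv array (adjusted p = 0.0646 to 0.0774). Hk1, the hexokinase that most tissues express steadily, read 4.61 and 4.58 in WT Tconv, 4.67 and 4.6 in WT Treg, 4.88 and 4.94 in Nr4a-TKO and 4.53 and 4.55 in Foxp3-KO. Its Nr4a-TKO arrays were the highest, 0.31 ± 0.07 (SE, adjusted p = 0.0143) above WT Tconv, but the call was lost without either WT Tconv array or Nr4a-TKO replicate 2 (adjusted p = 0.0627 to 0.0916) and with the mean of its probes.

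Phosphofructokinase commits sugar to glycolysis and has 3 isozymes, which did not move alike. Pfkl, the liver form, read -0.10 and -0.03 in WT Tconv, 0.12 and 0.22 in WT Treg, 1.07 and 1.05 in Nr4a-TKO and 0.14 and 0.40 in Foxp3-KO. Nr4a-TKO stood clear of every other array. It was 1.12 ± 0.10 (SE, adjusted p = 0.00128) over WT Tconv, 0.89 ± 0.10 (SE, adjusted p = 0.00339) over WT Treg and 0.79 ± 0.10 (SE, adjusted p = 0.00567) over Foxp3-KO. Pfkp, the platelet form, read 2.21 and 2.34 in WT Tconv, 1.99 and 2.03 in WT Treg, 2.97 and 2.89 in Nr4a-TKO and 2.23 and 2.44 in Foxp3-KO. Here too the Nr4a-TKO arrays were the highest, by 0.66 ± 0.10 (SE, adjusted p = 0.00476) over WT Tconv and 0.93 ± 0.10 (SE, adjusted p = 0.00258) over WT Treg. Pfkm, the muscle form, went the other way and read 1.97 and 2.05 in WT Tconv, 1.84 and 1.69 in WT Treg, 0.77 and 1.11 in Nr4a-TKO and 1.66 and 2.18 in Foxp3-KO. Both Nr4a-TKO arrays were the lowest, with a difference of -1.07 ± 0.20 (SE, adjusted p = 0.00956) from WT Tconv, a call lost without either WT Tconv array or Nr4a-TKO replicate 1 (adjusted p = 0.0513 to 0.0567).

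Aldolase cleaves the 6-carbon sugar, and both of its members here were higher in Nr4a-TKO. Aldoa, the form of most tissues, read 6.85 and 6.93 in WT Tconv, 6.72 and 6.78 in WT Treg, 8.21 and 8.18 in Nr4a-TKO and 7.2 and 7.02 in Foxp3-KO. Both Nr4a-TKO arrays lay above all others, with a difference of 1.31 ± 0.09 (SE, adjusted p = 0.000573) from WT Tconv, 1.45 ± 0.09 (SE, adjusted p = 0.000701) from WT Treg and 1.09 ± 0.09 (SE, adjusted p = 0.00166) from Foxp3-KO. Aldoc, the brain form, read -0.47 and -0.75 in WT Tconv, 0.90 and 0.61 in WT Treg, 2.28 and 1.87 in Nr4a-TKO and 1.08 and -0.02 in Foxp3-KO. WT Tconv was lowest and Nr4a-TKO highest without overlap, 2.68 ± 0.38 (SE, adjusted p = 0.00385) apart. WT Treg lay above WT Tconv as well, by 1.36 ± 0.38 (SE, adjusted p = 0.0389), but not once either WT Tconv array, either WT Treg array or either Nr4a-TKO array (adjusted p = 0.0616 to 0.167) was left out. Tpi1, the triose phosphate isomerase, read 2.81 and 2.9 in WT Tconv, 3.37 and 3.26 in WT Treg, 5.0 and 4.95 in Nr4a-TKO and 3.94 and 3.71 in Foxp3-KO. The 4 groups did not overlap and stood in the order WT Tconv, WT Treg, Foxp3-KO, Nr4a-TKO. Nr4a-TKO was 4.35-fold above WT Tconv (2.12 ± 0.10, adjusted p = 0.000262) and 2.22-fold above Foxp3-KO (1.15 ± 0.10, adjusted p = 0.00218). Foxp3-KO differed from WT Tconv by 0.97 ± 0.10 (SE, adjusted p = 0.00463) and WT Treg by 0.46 ± 0.10 (SE, adjusted p = 0.0212), the latter not called without either WT Tconv array or either WT Treg array (adjusted p = 0.0598 to 0.124).

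**Figure D3:**
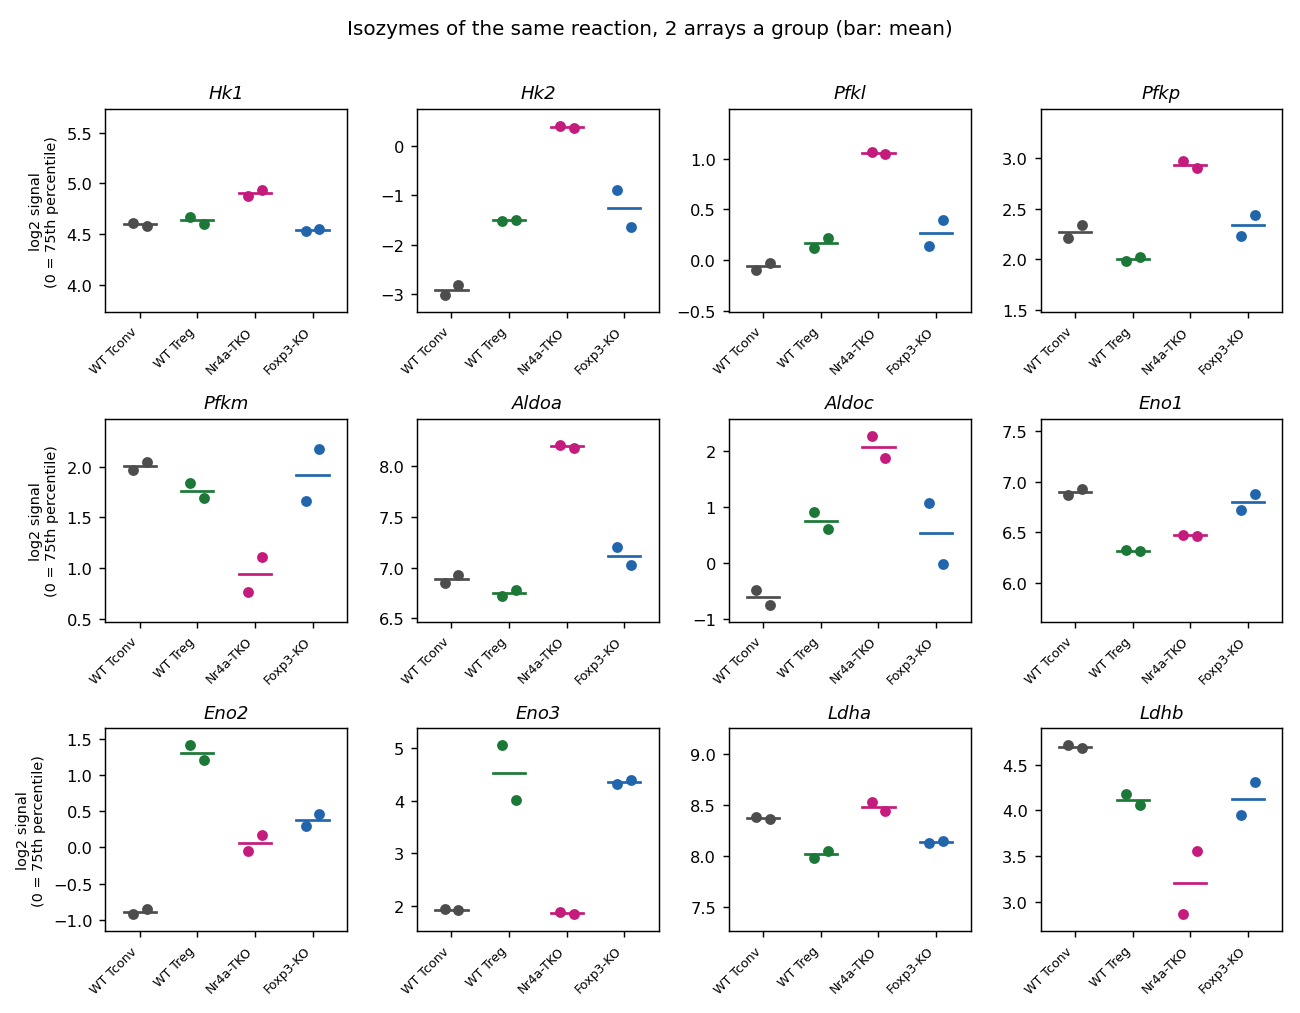
Log2 signal of 12 isozyme genes on each array (points) with the group mean (bars), where 0 is the 75th percentile of the array and each panel has its own scale of at least 2 log2 units. Nr4a-TKO is the highest group for Hk2, Pfkl, Pfkp, Aldoa and Aldoc and the lowest for Pfkm and Ldhb. Eno3 is high in WT Treg and Foxp3-KO alone, the groups that shared a slide row.

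From triose phosphates to pyruvate, Pgk1, Pgam1, Eno1 and Pkm were lower in WT Treg than in WT Tconv. Of 7 genes, 2 were called higher and 4 lower in WT Treg against WT Tconv, 4 higher and 1 lower in Nr4a-TKO and 2 higher and 0 lower in Foxp3-KO. Of all genes, 13.8% were called higher and 21.5% lower in WT Treg, 21.4% and 26.8% in Nr4a-TKO and 10.4% and 14.3% in Foxp3-KO. Against WT Treg, 3 were higher and 2 lower in Nr4a-TKO, beside 19.4% and 15.9%.

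Gapdh, which makes the first NADH of the pathway, read 7.72 and 7.82 in WT Tconv, 7.6 and 7.62 in WT Treg, 8.38 and 8.39 in Nr4a-TKO and 7.94 and 7.88 in Foxp3-KO. Nr4a-TKO was the highest and WT Treg the lowest group, and the Nr4a-TKO difference was 0.62 ± 0.07 (SE, adjusted p = 0.0022) from WT Tconv and 0.78 ± 0.07 (SE, adjusted p = 0.00173) from WT Treg. WT Treg differed from WT Tconv by -0.16, which was not called (adjusted p = 0.136). Pgk1, which makes the first ATP, read 5.4 and 5.51 in WT Tconv, 4.92 and 4.94 in WT Treg, 5.87 and 5.92 in Nr4a-TKO and 5.51 and 5.44 in Foxp3-KO. WT Treg lay below all other arrays, with a difference of -0.53 ± 0.07 (SE, adjusted p = 0.00531) from WT Tconv, and Nr4a-TKO above them, by 0.44 ± 0.07 (SE, adjusted p = 0.00681), a call lost without WT Tconv replicate 1 (adjusted p = 0.0568). Nr4a-TKO exceeded WT Treg by 0.97 ± 0.07 (SE, adjusted p = 0.00106). Pgam1, the phosphoglycerate mutase, read 4.74 and 4.78 in WT Tconv, 4.31 and 4.38 in WT Treg, 5.53 and 5.51 in Nr4a-TKO and 4.71 and 4.74 in Foxp3-KO. Its order was the same, with WT Treg -0.42 ± 0.06 (SE, adjusted p = 0.00742) and Nr4a-TKO 0.76 ± 0.06 (SE, adjusted p = 0.00108) relative to WT Tconv, and 1.17 ± 0.06 (SE, adjusted p = 0.000598) between Nr4a-TKO and WT Treg. The WT Treg call of Pgam1 was lost without either WT Tconv array (adjusted p = 0.0563 to 0.0646). Pkm, the pyruvate kinase gene whose M2 form marks dividing cells, read 5.55 and 5.6 in WT Tconv, 5.06 and 5.02 in WT Treg, 5.33 and 5.5 in Nr4a-TKO and 5.41 and 5.72 in Foxp3-KO. WT Treg was again below every other array, with a difference of -0.54 ± 0.12 (SE, adjusted p = 0.0227) from WT Tconv, which was not called without either WT Tconv array or either WT Treg array (adjusted p = 0.0837 to 0.117), and the probe does not say which splice form it measured.

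The 3 enolases, which make phosphoenolpyruvate, differed in direction. Eno1, the general form, read 6.86 and 6.93 in WT Tconv, 6.32 and 6.31 in WT Treg, 6.48 and 6.47 in Nr4a-TKO and 6.72 and 6.88 in Foxp3-KO. WT Treg and Nr4a-TKO were both below WT Tconv, with differences of -0.58 ± 0.08 (SE, adjusted p = 0.00523) and -0.42 ± 0.08 (SE, adjusted p = 0.00973), the latter lost without either WT Tconv array (adjusted p = 0.0536 to 0.0679). Eno2, known as the neuronal enolase, read -0.93 and -0.85 in WT Tconv, 1.41 and 1.2 in WT Treg, -0.05 and 0.17 in Nr4a-TKO and 0.30 and 0.46 in Foxp3-KO. All 6 arrays of the other groups were above both WT Tconv arrays, with WT Treg highest. The differences were 2.2 ± 0.12 (SE, adjusted p = 0.000398), or 4.58-fold, in WT Treg, 0.95 ± 0.12 (SE, adjusted p = 0.00297) in Nr4a-TKO and 1.27 ± 0.12 (SE, adjusted p = 0.00332) in Foxp3-KO. These calls held without any single array. Nr4a-TKO lay below WT Treg, with a difference of -1.24 ± 0.12 (SE, adjusted p = 0.00199).

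Eno3, the muscle enolase, read 1.94 and 1.92 in WT Tconv, 5.05 and 4.0 in WT Treg, 1.88 and 1.84 in Nr4a-TKO and 4.32 and 4.4 in Foxp3-KO. WT Treg and Foxp3-KO overlapped at the high end, WT Tconv and Nr4a-TKO lay close together at the low end. WT Treg was 6.05-fold above WT Tconv (2.6 ± 0.32, adjusted p = 0.00367), and Foxp3-KO 5.39-fold (2.43 ± 0.32, adjusted p = 0.00821), the latter not called without either WT Tconv array (adjusted p = 0.0626 to 0.0629). Nr4a-TKO differed from WT Tconv by -0.07 (adjusted p = 0.876) and lay below the 2 high groups, with differences of -2.66 ± 0.32 (SE, adjusted p = 0.00361) from WT Treg and -2.5 ± 0.32 (SE, adjusted p = 0.00514) from Foxp3-KO. Among the members called higher in WT Treg against WT Tconv, Eno2 and Eno3 were the pair with the largest differences.

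Lactate dehydrogenase turns pyruvate into lactate, and its muscle subunit Ldha read 8.38 and 8.36 in WT Tconv, 7.98 and 8.05 in WT Treg, 8.53 and 8.44 in Nr4a-TKO and 8.12 and 8.14 in Foxp3-KO. WT Treg and Foxp3-KO lay below WT Tconv and Nr4a-TKO, and WT Treg differed from WT Tconv by -0.36 ± 0.07 (SE, adjusted p = 0.0141), a call lost without either WT Tconv array or either WT Treg array (adjusted p = 0.0516 to 0.098). Nr4a-TKO exceeded WT Treg by 0.47 ± 0.07 (SE, adjusted p = 0.00683) and differed from WT Tconv by 0.11 (adjusted p = 0.23). The heart subunit Ldhb read 4.71 and 4.68 in WT Tconv, 4.17 and 4.06 in WT Treg, 2.87 and 3.56 in Nr4a-TKO and 3.95 and 4.31 in Foxp3-KO. Every array outside WT Tconv was below both WT Tconv arrays, and Nr4a-TKO was the lowest, with a difference of -1.48 ± 0.24 (SE, adjusted p = 0.0063) from WT Tconv, while WT Treg (-0.58, adjusted p = 0.121) and Foxp3-KO (-0.56, adjusted p = 0.141) did not pass. Ldhb was lower in Nr4a-TKO replicate 1, the array with more B cell signal, than in replicate 2, as Pfkm and Pdha1 were. The Nr4a-TKO call of Ldhb held without either array, and the part of other cells in it was not tested.

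The PFKFB enzymes set the level of fructose 2,6-bisphosphate, the activator of phosphofructokinase. Pfkfb3, the form with the highest kinase activity, read 2.27 and 2.27 in WT Tconv, 2.91 and 2.6 in WT Treg, 2.67 and 2.39 in Nr4a-TKO and 3.01 and 3.07 in Foxp3-KO. All other arrays were above WT Tconv, by 0.77 ± 0.14 (SE, adjusted p = 0.018) in Foxp3-KO and 0.49 ± 0.14 (SE, adjusted p = 0.0443) in WT Treg, calls lost without either WT Tconv array (adjusted p = 0.105 to 0.106) and without either WT Tconv array, WT Treg replicate 1 or either Foxp3-KO array (adjusted p = 0.0568 to 0.173). Pfkfb4, a second such kinase, read 1.35 and 1.3 in WT Tconv, 0.94 and 0.46 in WT Treg, 0.89 and 0.55 in Nr4a-TKO and 1.11 and 1.19 in Foxp3-KO. It was below WT Tconv on every other array, but only the Nr4a-TKO difference was called (-0.61 ± 0.19, adjusted p = 0.0439), and not without either WT Tconv array, either Nr4a-TKO array or either Foxp3-KO array (adjusted p = 0.0584 to 0.177).

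The gate to the mitochondria changed most at its kinase. Pdk1, which phosphorylates and shuts pyruvate dehydrogenase and is a classic HIF target, read 1.96 and 2.0 in WT Tconv, 1.03 and 0.97 in WT Treg, -0.09 and 0.05 in Nr4a-TKO and 1.19 and 1.33 in Foxp3-KO. The 4 groups did not overlap and stood in the order WT Tconv, Foxp3-KO, WT Treg, Nr4a-TKO from high to low. Nr4a-TKO was 3.99-fold below WT Tconv (-2.0 ± 0.09, adjusted p = 0.00022), the smallest adjusted p of any member in that comparison, and WT Treg 1.97-fold below (-0.98 ± 0.09, adjusted p = 0.00146). Foxp3-KO was also below WT Tconv, with a difference of -0.72 ± 0.09 (SE, adjusted p = 0.00705) that was lost without either WT Tconv array (adjusted p = 0.0589 to 0.0634). Pdha1, the catalytic subunit that Pdk1 acts on, read 2.35 and 2.39 in WT Tconv, 2.38 and 2.36 in WT Treg, 1.2 and 1.58 in Nr4a-TKO and 2.33 and 2.57 in Foxp3-KO. WT Tconv, WT Treg and Foxp3-KO lay between 2.33 and 2.57 and both Nr4a-TKO arrays below them, with differences of -0.98 ± 0.15 (SE, adjusted p = 0.00481) from WT Tconv, -0.98 ± 0.15 (SE, adjusted p = 0.00714) from WT Treg and -1.06 ± 0.15 (SE, adjusted p = 0.00641) from Foxp3-KO. Dlat, the acetyltransferase core of the same complex, read between 0.03 and 0.49 and was called in no comparison. Kinase and catalytic subunit were thus both lower in Nr4a-TKO, and only the kinase was called lower in WT Treg and Foxp3-KO.

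Hif1a itself was higher in all 3 groups than in WT Tconv, and one of its hydroxylases was higher in Nr4a-TKO. Hif1a read 1.04 and 1.13 in WT Tconv, 2.05 and 2.17 in WT Treg, 3.39 and 3.07 in Nr4a-TKO and 2.36 and 2.0 in Foxp3-KO. Both WT Tconv arrays were the lowest, Nr4a-TKO the highest, and WT Treg and Foxp3-KO overlapped between them, the same order as for Hk2. The difference from WT Tconv was 2.14 ± 0.16 (SE, adjusted p = 0.000785) in Nr4a-TKO, or 4.42-fold. It was 1.02 ± 0.16 (SE, adjusted p = 0.00781) in WT Treg and 1.09 ± 0.16 (SE, adjusted p = 0.0108) in Foxp3-KO. Nr4a-TKO was above WT Treg by 1.12 ± 0.16 (SE, adjusted p = 0.00635). The WT Treg call was lost without WT Tconv replicate 1 (adjusted p = 0.0577) and the Foxp3-KO call without either WT Tconv array (adjusted p = 0.0695 to 0.0796). HIF-1 alpha is controlled mainly as a protein, which arrays do not measure.

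Egln3, the hydroxylase that HIF itself induces, read -0.81 and -0.82 in WT Tconv, -0.90 and -0.76 in WT Treg, 2.21 and 2.33 in Nr4a-TKO and -0.07 and -0.68 in Foxp3-KO. Both Nr4a-TKO arrays were above 2 and no other array reached 0. The difference was 3.09 ± 0.20 (SE, adjusted p = 0.000555) from WT Tconv, or 8.5-fold. It was 3.1 ± 0.20 (SE, adjusted p = 0.000756) from WT Treg and 2.65 ± 0.20 (SE, adjusted p = 0.00149) from Foxp3-KO. These calls held without any single array. WT Treg differed from WT Tconv by -0.02 (adjusted p = 0.958) and Foxp3-KO by 0.44 (adjusted p = 0.16). Egln1, the main oxygen sensor, read -1.47 and -1.83 in WT Tconv, -2.1 and -1.93 in WT Treg, -2.0 and -1.91 in Nr4a-TKO and -1.55 and -1.41 in Foxp3-KO. It was called in no comparison as fitted, but lower under some alternatives. In WT Treg against WT Tconv it was called with median scaling (-0.52, adjusted p = 0.0418) and with normexp background correction (-0.25, adjusted p = 0.0426). With normexp it was also called in Nr4a-TKO against WT Tconv (-0.25, adjusted p = 0.0319) and against Foxp3-KO (-0.33, adjusted p = 0.0171). The latter difference, -0.47 with an adjusted p of 0.0529 as fitted, was called too with only genes above background on all arrays (adjusted p = 0.0377) and without either WT Tconv array (adjusted p = 0.0471 and 0.0460). Vhl, the ligase subunit, read 2.11 and 2.02 in WT Tconv, 2.4 and 2.34 in WT Treg, 2.17 and 2.21 in Nr4a-TKO and 2.44 and 2.33 in Foxp3-KO. WT Treg (0.31 ± 0.08, adjusted p = 0.0288) and Foxp3-KO (0.32 ± 0.08, adjusted p = 0.0349) were above WT Tconv by small margins. The first call was lost without either WT Tconv array, either WT Treg array or either Nr4a-TKO array (adjusted p = 0.0505 to 0.163). The second was lost without either WT Tconv array, either WT Treg array, either Nr4a-TKO array or Foxp3-KO replicate 1 (adjusted p = 0.0598 to 0.189), and both with median scaling.

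**Figure D4:**
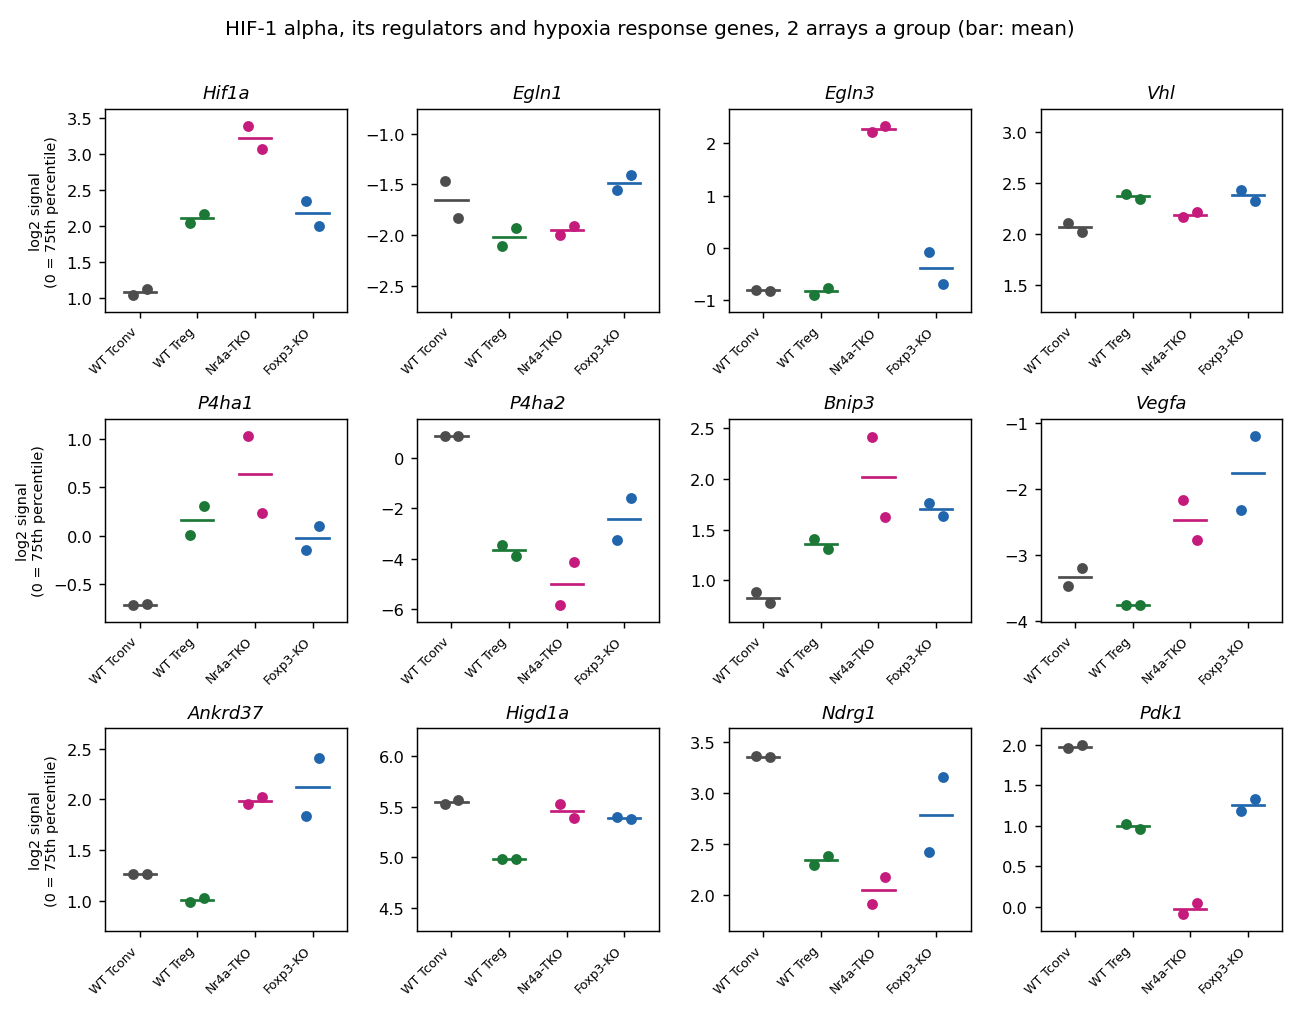
Log2 signal of Hif1a, its regulators, hypoxia response genes and Pdk1 on each array (points) with the group mean (bars), where 0 is the array's 75th percentile and panels have their own scales. Hif1a and Egln3 are highest in Nr4a-TKO, Pdk1 is lowest there, and P4ha2 and Ndrg1 lie below WT Tconv in the 3 other groups, Ndrg1 not called in Foxp3-KO.

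The hypoxia response genes did not follow Hif1a as a set. Of 7 tested, 0 were called higher and 3 lower in WT Treg against WT Tconv, 3 higher and 2 lower in Nr4a-TKO and 2 higher and 1 lower in Foxp3-KO. Of all genes, 13.8% were called higher and 21.5% lower in WT Treg, 21.4% and 26.8% in Nr4a-TKO and 10.4% and 14.3% in Foxp3-KO. The counts of so few genes carry no test. P4ha2, a collagen prolyl hydroxylase, had the largest difference of all members and read 0.85 and 0.88 in WT Tconv, -3.44 and -3.9 in WT Treg, -5.83 and -4.14 in Nr4a-TKO and -3.27 and -1.58 in Foxp3-KO. It was above background on both WT Tconv and both Foxp3-KO arrays but on 1 of 2 in WT Treg and in Nr4a-TKO, so the size of these 2 differences is uncertain. All 6 other arrays were below WT Tconv. The differences were -4.54 ± 0.73 (SE, adjusted p = 0.00818) in WT Treg, -5.85 ± 0.73 (SE, adjusted p = 0.00283) in Nr4a-TKO and -3.29 ± 0.73 (SE, adjusted p = 0.0293) in Foxp3-KO. The WT Treg call was lost without either WT Tconv array (adjusted p = 0.0535 to 0.0539), and the Foxp3-KO call without either WT Tconv array, either WT Treg array or Foxp3-KO replicate 1 (adjusted p = 0.0562 to 0.135). P4ha1, the other catalytic subunit of that enzyme, went the opposite way and read -0.72 and -0.71 in WT Tconv, 0.01 and 0.31 in WT Treg, 1.03 and 0.24 in Nr4a-TKO and -0.15 and 0.10 in Foxp3-KO. Every other array was above WT Tconv, and the Nr4a-TKO difference was called (1.35 ± 0.27, adjusted p = 0.0116), except without either WT Tconv array (adjusted p = 0.0598 to 0.0629).

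Bnip3, which marks mitochondria for removal, read 0.88 and 0.77 in WT Tconv, 1.4 and 1.31 in WT Treg, 2.41 and 1.62 in Nr4a-TKO and 1.77 and 1.63 in Foxp3-KO. All other arrays were above WT Tconv, and Nr4a-TKO passed (1.19 ± 0.25, adjusted p = 0.0135), but not without either WT Tconv array (adjusted p = 0.0625 to 0.0718) nor with the mean of its probes. Between Nr4a-TKO and WT Tconv, 2 of the Bnip3 probes differed by 1.19 and 1.17. The third, which enters that mean, was above background on 1 of 8 arrays. For P4ha1 and Bnip3 the higher Nr4a-TKO array was replicate 1, the one with more B cell and myeloid signal, as it was for Hif1a and Aldoc. Over the members the median of replicate 1 minus replicate 2 in Nr4a-TKO was 0.0058. The part of other cells in these differences was not tested. Ankrd37, a small ankyrin protein induced by HIF, read 1.27 and 1.27 in WT Tconv, 0.99 and 1.03 in WT Treg, 1.95 and 2.02 in Nr4a-TKO and 1.84 and 2.41 in Foxp3-KO. Both precursor groups lay above both wild-type groups without overlap. Against WT Treg the difference was 0.98 ± 0.18 (SE, adjusted p = 0.0133) in Nr4a-TKO and 1.12 ± 0.18 (SE, adjusted p = 0.0306) in Foxp3-KO, lost without either WT Treg array or either Nr4a-TKO array (adjusted p = 0.0584 to 0.062) and without either WT Tconv array, either WT Treg array or either Nr4a-TKO array (adjusted p = 0.0617 to 0.121). Vegfa, the vessel growth factor, was dim and read -3.47 and -3.2 in WT Tconv, -3.76 and -3.76 in WT Treg, -2.17 and -2.77 in Nr4a-TKO and -2.31 and -1.19 in Foxp3-KO, above background on 1 of 2 WT Treg arrays. Both precursor groups lay above the wild-type groups, and Foxp3-KO passed against WT Treg (2.0 ± 0.39, adjusted p = 0.0463), but not without either WT Tconv array, either WT Treg array, either Nr4a-TKO array or Foxp3-KO replicate 2 (adjusted p = 0.0511 to 0.17).

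Ndrg1, a stress-induced growth regulator, read 3.36 and 3.35 in WT Tconv, 2.29 and 2.38 in WT Treg, 1.91 and 2.18 in Nr4a-TKO and 2.42 and 3.15 in Foxp3-KO. It was lower than WT Tconv on all other arrays, with differences of -1.32 ± 0.24 (SE, adjusted p = 0.00897) in Nr4a-TKO and -1.02 ± 0.24 (SE, adjusted p = 0.0256) in WT Treg, calls lost without either WT Tconv array or Nr4a-TKO replicate 1 (adjusted p = 0.0501 to 0.0542) and without either WT Tconv array or either WT Treg array (adjusted p = 0.0878 to 0.116). Higd1a, a mitochondrial protein induced by hypoxia, read 5.53 and 5.56 in WT Tconv, 4.98 and 4.98 in WT Treg, 5.53 and 5.38 in Nr4a-TKO and 5.4 and 5.38 in Foxp3-KO. WT Treg was below every other array, with a difference of -0.56 ± 0.08 (SE, adjusted p = 0.00471) from WT Tconv, and Nr4a-TKO exceeded it by 0.47 ± 0.08 (SE, adjusted p = 0.00829). Among the glycogen enzymes, the branching enzyme Gbe1 read 0.81 and 0.72 in WT Tconv, 1.27 and 1.3 in WT Treg, 1.1 and 1.1 in Nr4a-TKO and 1.27 and 1.05 in Foxp3-KO. It was above WT Tconv in all 3 groups, by 0.52 ± 0.10 (SE, adjusted p = 0.0118) in WT Treg, 0.40 ± 0.10 (SE, adjusted p = 0.0359) in Foxp3-KO and 0.33 ± 0.10 (SE, adjusted p = 0.0337) in Nr4a-TKO. Those calls were lost without either WT Tconv array or either WT Treg array (adjusted p = 0.0535 to 0.0827), without either WT Tconv array, either WT Treg array, either Nr4a-TKO array or Foxp3-KO replicate 1 (adjusted p = 0.0636 to 0.182) and without either WT Tconv array, either WT Treg array or either Nr4a-TKO array (adjusted p = 0.0623 to 0.164), and the calls of both precursor groups with median scaling. Pgm2, a phosphoglucomutase, was called only between the precursor groups (-0.63 ± 0.16, adjusted p = 0.0339), and not without either WT Tconv array, either Nr4a-TKO array or Foxp3-KO replicate 1 (adjusted p = 0.0635 to 0.136).

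Across the 3 groups set against WT Tconv, 5 members were called higher in each (Hk2, Tpi1, Eno2, Hif1a and Gbe1) and 2 lower in each (Pdk1 and P4ha2), and these comparisons share the WT Tconv arrays. In all, 33 members were called in at least 1 of the 6 comparisons, and Gpi1, Dlat and Egln1 in none. Such overlaps were not counted over all 13498 tested genes, so they show no feature particular to the members. The share of all genes called against WT Tconv, in either direction, ran from 24.6% (Foxp3-KO) to 48.2% (Nr4a-TKO). Against WT Treg, the Foxp3-KO calls were Tpi1 (0.51), Pgk1 (0.54), Pgam1 (0.38), Eno1 (0.48), Higd1a (0.41), Ankrd37 and Vegfa, with Eno2 lower (-0.92). Eno2 was lost without either WT Tconv array or WT Treg replicate 1 (adjusted p = 0.0607 to 0.0649) and Pgk1 without either WT Tconv array or either WT Treg array (adjusted p = 0.0608 to 0.0863). The call of Tpi1 was lost without either WT Tconv array, either WT Treg array, either Nr4a-TKO array or Foxp3-KO replicate 1 (adjusted p = 0.0678 to 0.197). That of Pgam1 was lost without either WT Tconv array, either WT Treg array, either Nr4a-TKO array or Foxp3-KO replicate 2 (adjusted p = 0.0571 to 0.122). That of Eno1 was lost without either WT Tconv array, either WT Treg array or either Nr4a-TKO array (adjusted p = 0.0618 to 0.135) and that of Higd1a in all 8 such fits (adjusted p = 0.0519 to 0.156), and the arrays for Ankrd37 and Vegfa are given above. For the same genes Nr4a-TKO differed from WT Treg by 1.66 for Tpi1, 0.97 for Pgk1, 1.17 for Pgam1 and -1.24 for Eno2, all called, and by 0.15 for Eno1 (adjusted p = 0.182). Tested directly, Nr4a-TKO was above Foxp3-KO for Tpi1 (1.15 ± 0.10, adjusted p = 0.00218) and Pgam1 (0.79 ± 0.06, adjusted p = 0.00174).

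**Figure D5:**
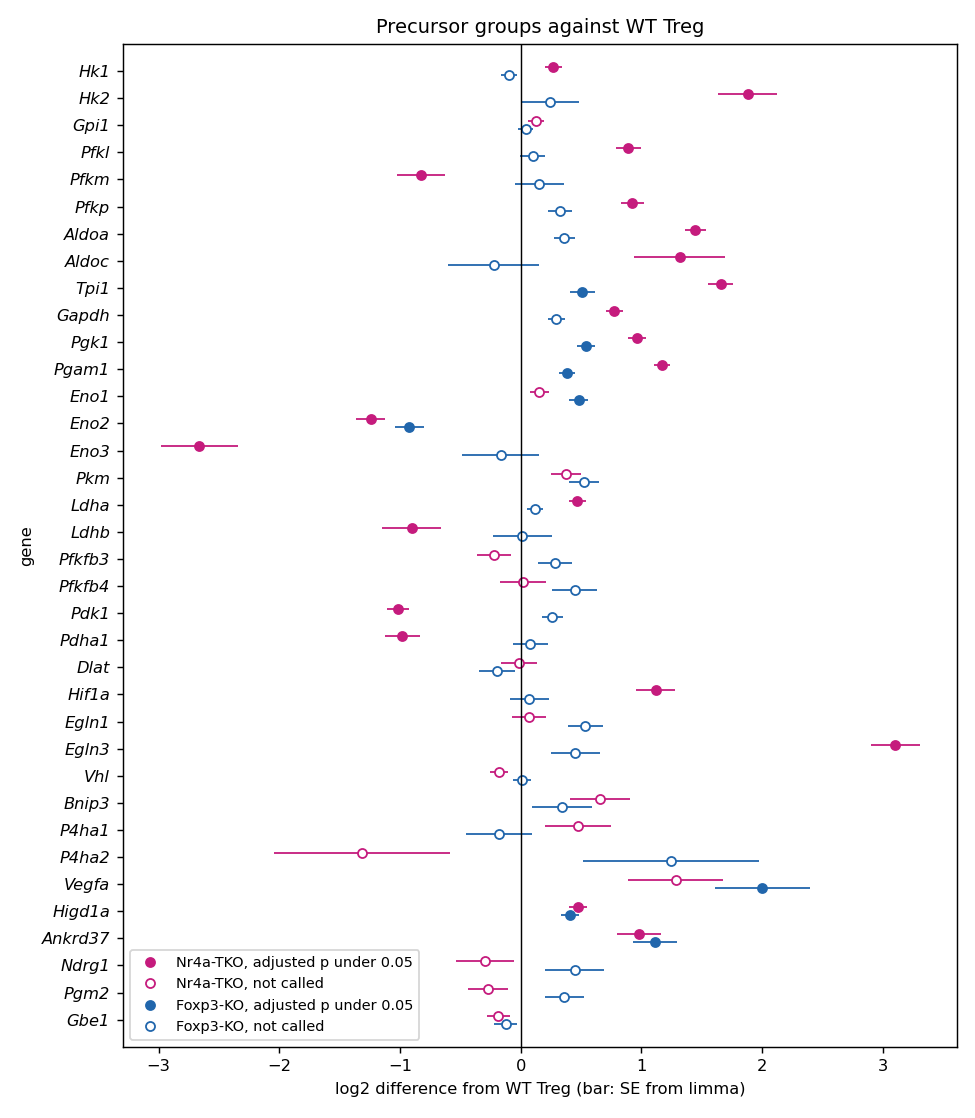
Log2 difference from WT Treg of the 36 tested members in Nr4a-TKO and Foxp3-KO (points, mean of 2 arrays minus mean of 2 arrays) with the SE from limma (bars), filled where the adjusted p was under 0.05. In Nr4a-TKO, Egln3 and Hk2 lie farthest to the right and Eno3 farthest to the left, with 15 points filled on the right and 6 on the left, against 7 and 1 in Foxp3-KO, where Vegfa lies farthest to the right.

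Genes around the pathway, drawn up as lists beside the members, were read in the same fit. Their counts against WT Tconv stand beside the shares of all genes called higher and lower, which were 21.4% and 26.8% in Nr4a-TKO, 13.8% and 21.5% in WT Treg and 10.4% and 14.3% in Foxp3-KO, and carry no test. Of 8 carriers of glucose and lactate, 4 were called higher and 0 lower in Nr4a-TKO, 3 and 0 in WT Treg and 2 and 0 in Foxp3-KO against WT Tconv. With median scaling these counts were 3 and 1, 2 and 0, and 2 and 1, and with quantile normalization Nr4a-TKO had 4 and 1. Slc16a3, the lactate exporter MCT4, read 0.01 and -0.01 in WT Tconv, 2.61 and 2.36 in WT Treg, 3.26 and 2.92 in Nr4a-TKO and 2.54 and 2.5 in Foxp3-KO. All 3 groups were far above WT Tconv without overlap, by 3.09 ± 0.14 (SE, adjusted p = 0.00022) in Nr4a-TKO, 2.49 ± 0.14 (SE, adjusted p = 0.000418) in WT Treg and 2.52 ± 0.14 (SE, adjusted p = 0.000676) in Foxp3-KO. These calls held without any single array. Slc2a1, the glucose transporter GLUT1, read 1.68 and 1.57 in WT Tconv, 1.87 and 1.96 in WT Treg, 2.76 and 2.77 in Nr4a-TKO and 1.85 and 1.73 in Foxp3-KO. Nr4a-TKO was the highest, 1.14 ± 0.08 (SE, adjusted p = 0.00072) above WT Tconv and 0.85 ± 0.08 (SE, adjusted p = 0.00198) above WT Treg. Slc2a6, a lysosomal sugar transporter that myeloid cells also express, was higher in Nr4a-TKO by 4.08 ± 0.43 (SE, adjusted p = 0.00178). The part of myeloid cells in that difference was not tested. Bsg, the chaperone of lactate carriers, was higher in Nr4a-TKO by 0.33 ± 0.07 (SE, adjusted p = 0.0154), a call lost without either WT Tconv array or Nr4a-TKO replicate 1 (adjusted p = 0.0744 to 0.0943).

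Downstream of pyruvate, 27 genes of pyruvate oxidation and the citric acid cycle were listed and 26 tested, of which 3 were called higher and 10 lower in WT Treg, 0 and 7 in Nr4a-TKO and 1 and 5 in Foxp3-KO against WT Tconv. The lower calls lay near the share of all genes in Nr4a-TKO (26.8%) and Foxp3-KO (14.3%) and above it in WT Treg (21.5%). The median difference of the 26 was -0.12 in Foxp3-KO, -0.15 in Nr4a-TKO and -0.19 in WT Treg, beside -0.10, -0.10 and -0.09 over all genes. In WT Treg, quantile normalization left 3 and 4 and median scaling gave 3 and 15. Suclg1, a succinyl-CoA ligase subunit, was lower in WT Treg (-0.58 ± 0.06, adjusted p = 0.00278), in Nr4a-TKO (-0.60 ± 0.06, adjusted p = 0.00183) and in Foxp3-KO (-0.50 ± 0.06, adjusted p = 0.00798), the last not called without either WT Tconv array (adjusted p = 0.07 to 0.0712). Mdh2, the mitochondrial malate dehydrogenase, was lower in WT Treg (-0.55 ± 0.07, adjusted p = 0.00353), with -0.20 in Nr4a-TKO (adjusted p = 0.0559). Pdhx, which tethers the E3 subunit of pyruvate dehydrogenase, was lower in Nr4a-TKO (-0.70 ± 0.10, adjusted p = 0.0047), as the catalytic subunit Pdha1 was. Suclg2, the partner subunit of Suclg1 that uses GTP, differed between Nr4a-TKO and WT Treg by -0.93 ± 0.10 (SE, adjusted p = 0.0023).

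Of 7 pentose phosphate genes, 3 were called higher and 3 lower in Nr4a-TKO against WT Tconv, or 1 and 3 with median scaling. G6pdx, the enzyme that opens that branch, was higher (0.49 ± 0.11, adjusted p = 0.0145), except without either WT Tconv array or either Nr4a-TKO array (adjusted p = 0.0539 to 0.0897). Rpia, a ribose phosphate isomerase, was higher in Nr4a-TKO than in Foxp3-KO (0.56 ± 0.08, adjusted p = 0.00643). Taldo1, the transaldolase, was lower in WT Treg than in WT Tconv (-0.44 ± 0.07, adjusted p = 0.00965), except without either WT Tconv array or WT Treg replicate 2 (adjusted p = 0.0537 to 0.0765). So was Rpe, a ribulose phosphate epimerase (-0.40 ± 0.08, adjusted p = 0.0158), except without either WT Tconv array or WT Treg replicate 1 (adjusted p = 0.0819 to 0.104). Of 9 tested among 15 other glycolytic enzymes, 3 were higher and 5 lower in Nr4a-TKO, 3 and 4 in WT Treg and 2 and 5 in Foxp3-KO against WT Tconv. Hk3, the hexokinase that myeloid cells are known for, was above background on neither WT Tconv array and at least 6.1-fold higher in Nr4a-TKO (adjusted p = 0.00539), a gene chosen after its values were seen. Galm, which opens the sugar ring ahead of hexokinase, was higher in WT Treg (1.73 ± 0.11, adjusted p = 0.000547) and Nr4a-TKO (1.68 ± 0.11, adjusted p = 0.000555). Minpp1, which acts on bisphosphoglycerate, was lower in WT Treg (-0.86 ± 0.10, adjusted p = 0.00336) and Nr4a-TKO (-1.19 ± 0.10, adjusted p = 0.00111). Bpgm, which makes that molecule, was lower in WT Treg (-0.74 ± 0.08, adjusted p = 0.00266), and Pfkfb2, a further PFKFB enzyme, in Nr4a-TKO (-1.67 ± 0.20, adjusted p = 0.00258).

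Glycogen genes included 5 called higher and 1 lower of 10 tested in Nr4a-TKO against WT Tconv. Ppp1r3d, which targets a phosphatase to glycogen, was above background on both Nr4a-TKO arrays and on neither WT Tconv array, at least 11-fold higher against the lowest signal well above background (adjusted p = 0.00271). Stbd1, a glycogen anchor, was above background in Nr4a-TKO alone, at least 4.74-fold above WT Tconv (adjusted p = 0.00577). Stbd1 was tested only through the Nr4a-TKO arrays, so its call was not independent of the filter. Pgm1, a phosphoglucomutase, was higher (0.62 ± 0.10, adjusted p = 0.00513), and Pygm, the muscle glycogen phosphorylase, lower (-0.84 ± 0.11, adjusted p = 0.00355).

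Among 14 further genes of the HIF system, 4 were called higher and 4 lower in Nr4a-TKO, 1 and 3 in WT Treg and 0 and 3 in Foxp3-KO against WT Tconv. These counts lay near the shares of all genes, such as 26.8% called lower in Nr4a-TKO and 21.5% in WT Treg, apart from the absence of higher calls in Foxp3-KO (10.4% of all genes). Median scaling gave 2 and 4 in Nr4a-TKO and 1 and 5 in WT Treg, and quantile normalization 2 and 2 in WT Treg. Arnt2, a partner of HIF alpha subunits, read -6.62 and -6.76 in WT Tconv, -4.55 and -3.63 in WT Treg, -0.04 and -0.23 in Nr4a-TKO and -4.56 and -6.36 in Foxp3-KO. It was above background on both Nr4a-TKO arrays, on 1 WT Treg array and on none of WT Tconv or Foxp3-KO, which made Nr4a-TKO at least 26.2-fold higher than WT Tconv (adjusted p = 0.00128) and at least 13.4-fold higher than Foxp3-KO (adjusted p = 0.00398). Arnt2 too was tested only through the Nr4a-TKO arrays, so these calls were not independent of the filter. Hif3a, a HIF alpha paralogue with inhibitory forms, read 1.41 and 1.26 in WT Tconv, -0.72 and -1.04 in WT Treg, -2.0 and -0.94 in Nr4a-TKO and -0.93 and -0.13 in Foxp3-KO. All 6 other arrays were below WT Tconv, with a difference of -2.8 ± 0.41 (SE, adjusted p = 0.00462) in Nr4a-TKO. Siah1a, a ligase that degrades hydroxylases, was lower in Nr4a-TKO (-1.2 ± 0.19, adjusted p = 0.00592), and Eloc, part of the Vhl complex, in WT Treg (-0.50 ± 0.06, adjusted p = 0.00389).

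Of 22 other hypoxia response genes, 21 were tested, and 5 were called higher and 2 lower in Nr4a-TKO, 2 and 5 in WT Treg and 1 and 0 in Foxp3-KO against WT Tconv. In WT Treg the split was 1 and 6 with median scaling and 2 and 3 with quantile normalization, and in Foxp3-KO 1 and 3 and 2 and 1. Bhlhe40, a repressor induced by hypoxia and by T cell receptor signals, read -2.94 and -2.66 in WT Tconv, 1.31 and 1.51 in WT Treg, 3.11 and 3.39 in Nr4a-TKO and 1.5 and 0.19 in Foxp3-KO. It was higher in all 3 groups without overlap, by 6.05 ± 0.42 (SE, adjusted p = 0.000655) in Nr4a-TKO. Plod2, a lysyl hydroxylase, was higher in Nr4a-TKO (1.96 ± 0.19, adjusted p = 0.00141) and not called in WT Treg (-0.18) or Foxp3-KO (-0.34). Car9, a carbonic anhydrase widely used as a marker of hypoxia, read -2.32 and -2.6 in WT Tconv, -3.8 and -4.1 in WT Treg, -5.47 and -5.75 in Nr4a-TKO and -3.18 and -2.96 in Foxp3-KO. It was above background on both arrays of WT Tconv and Foxp3-KO and on no array of WT Treg or Nr4a-TKO, with WT Tconv at least 2.73-fold above WT Treg (adjusted p = 0.0031) and at least 3.97-fold above Nr4a-TKO (adjusted p = 0.000373). Tfrc, the transferrin receptor, was lower in WT Treg (-0.82 ± 0.11, adjusted p = 0.00484). Hypoxia response genes thus stood on both sides of WT Tconv in Nr4a-TKO, among the members and beside them.

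MYC and its relatives, which also drive glycolytic genes, gave 2 higher and 6 lower of 10 in Nr4a-TKO against WT Tconv. Myc read 2.03 and 2.05 in WT Tconv, 2.14 and 2.31 in WT Treg, 1.25 and 1.39 in Nr4a-TKO and 1.93 and 1.85 in Foxp3-KO, and both Nr4a-TKO arrays were the lowest, with a difference of -0.72 ± 0.09 (SE, adjusted p = 0.0029) from WT Tconv. Mxd1, an antagonist of MYC, was higher in WT Treg (2.05 ± 0.12, adjusted p = 0.000493), Nr4a-TKO (0.97 ± 0.12, adjusted p = 0.00301) and Foxp3-KO (1.36 ± 0.12, adjusted p = 0.00302). Mxd3, its relative, was lower in WT Treg (-1.67 ± 0.15, adjusted p = 0.00133), and Mlxipl, the sugar sensor ChREBP, in Nr4a-TKO (-0.69 ± 0.07, adjusted p = 0.00154).

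Genes of dividing cells were lower in WT Treg than in WT Tconv. The 16 proliferation genes summed to 213 and 212 times the 75th percentile in WT Tconv, 100 and 99.5 in WT Treg, 218 and 212 in Nr4a-TKO and 164 and 170 in Foxp3-KO, with Aurkb alone above background on no array. Of 15 tested, 0 were called higher and 14 lower in WT Treg against WT Tconv, beside 13.8% and 21.5% of all genes. Against WT Treg, 14 were higher in Nr4a-TKO, beside 19.4% of all genes, and 12 in Foxp3-KO, beside 3.48%. Against WT Tconv, 6 were lower in Foxp3-KO as well, and 3 were higher and 1 lower in Nr4a-TKO. Between the precursor groups, 9 were higher in Nr4a-TKO than in Foxp3-KO, beside 18% of all genes. Rrm2, a ribonucleotide reductase subunit, differed between WT Treg and WT Tconv by -1.52 ± 0.08 (SE, adjusted p = 0.000384), and Ccnb1, the mitotic cyclin B1, by -1.23 ± 0.06 (SE, adjusted p = 0.000348). Kif11, a spindle motor, differed by -1.58, and Cdc6, which licenses replication, by -1.48, both called. Of 10 tested genes that respond to cell handling, 6 were called higher and 1 lower in Nr4a-TKO, 2 and 1 in WT Treg and 3 and 0 in Foxp3-KO against WT Tconv. Their signals summed to 147 and 110 in Nr4a-TKO against 90.7 and 88.4 in WT Tconv, 73.5 and 87.4 in WT Treg and 94.6 and 99.4 in Foxp3-KO. The immediate early genes Fos, Fosb and Junb were higher by 1.65 ± 0.23 (SE, adjusted p = 0.00383), 1.66 ± 0.14 (SE, adjusted p = 0.00108) and 0.79 ± 0.13 (SE, adjusted p = 0.00608). Atf3, a stress factor above background on neither WT Tconv array, was at least 27.5-fold higher (adjusted p = 0.0006). The part of proliferation and of handling in the member results was not tested.

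The marker lists of other cells were counted in the same fit. In Nr4a-TKO against WT Tconv, 4 of 4 tested B cell markers were called higher, among them Ebf1 at least 7.22-fold (adjusted p = 0.00964, and 0.0598 without WT Tconv replicate 1), and 11 of 12 myeloid markers were higher, among them C1qc at least 240-fold (adjusted p = 0.00443). Itgam was the 1 called lower. A gene was tested only where above background on both arrays of a group, which held for 4 B cell markers in Nr4a-TKO. It held for 2 in Foxp3-KO and 1 each in WT Tconv and WT Treg, so the filter partly set the count in Nr4a-TKO. The same 4 B cell markers had an adjusted p of 0.0671 to 0.164 in Foxp3-KO and of 0.0875 to 0.933 in WT Treg. Of the myeloid markers 7 were higher in Foxp3-KO and 4 in WT Treg. Of 8 T cell markers, 0 were higher and 4 lower in Nr4a-TKO, 1 and 6 in WT Treg and 1 and 2 in Foxp3-KO. Cd8a and Cd8b1, the genes of the CD8 molecule that CD4 single-positive cells lack by definition, were above background on every array and lower in WT Treg than in WT Tconv. Of 5 granulocyte markers 1 was higher and 1 lower in Nr4a-TKO. Of 5 red cell markers 2 were tested, both only through the Nr4a-TKO arrays, and Hbb-bt was called higher there. Of 7 markers of stroma, epithelium and endothelium 5 were tested. Epcam, an epithelial marker, was higher in all 3 groups, and Cdh5 was lower in WT Treg and Nr4a-TKO.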

How the data were processed

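RNA of 8 samples was hybridised to 1-colour Agilent arrays (10 ng of RNA, Cy3), all on 1 slide and scanned once. Per the file headers, Feature Extraction 10.7.1.1 (as the submitters' processing notes also name it) gave each spot an intensity, and the authors deposited these scanner files and a matrix of normalized signal, which is each array's processed intensity times a constant. Probes were named by their accession through RefSeq, and the only coordinates printed are those of RefSeq promoters.

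From 62976 spots an array, 3671 control spots and spots with an outlier mark were left out, spots were averaged by probe, and the log2 of the deposited processed intensity was taken and the array's 75th percentile subtracted. Of the probes, 28026 were matched to a gene and 27655 were not, which gave 21154 genes. The brightest probe stood for each gene, and a gene was tested where that probe was well above background on both arrays of at least 1 group. A gene that passed through 1 group alone was thus chosen where it is high, so its call there was not independent of the filter. limma 3.58.1 in R 4.3.3 (lmFit, eBayes) was fitted to all 8 arrays with 4 groups (4 residual degrees of freedom), with Benjamini-Hochberg adjustment over 13498 genes and a threshold of 0.05 for 6 comparisons, after the procedure was tested on simulated data. A fold against a group with the probe above background on neither array is a lower bound, set against the higher of the lowest signal among probes well above background and the probe's own. Arrays carry no counts, so their number limits the precision. The members and the lists were chosen with earlier results of these data known. By rule, any member may be named, of each list beside them the 4 genes with the smallest adjusted p over the 6 comparisons, and of each marker list the brightest gene and genes called. One B cell marker listed at the start is not reported here and enters no sum or count. Alternatives changed the scaling, background correction, filter, probe rule, variance model, arrays fitted and pairing. The protein identity of the isozymes was not computed, and protein sequences were not used here.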

Additional observations from a re-analysis of the deposited data

How the results depend on the processing

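No member's difference changed sign while called under any alternative run. Over the alternatives, 3842 single differences kept their side of the threshold, 343 lost it and 122 gained it. A minimum of 2-fold left 5 higher and 2 lower in WT Treg, 9 and 5 in Nr4a-TKO and 5 and 1 in Foxp3-KO against WT Tconv, 7 and 3 in Nr4a-TKO and 2 and 0 in Foxp3-KO against WT Treg, and 6 and 4 between the precursor groups. Median scaling gave 14 lower in WT Treg against WT Tconv and 2 higher in Foxp3-KO against WT Treg. Without the filter on dim probes, Foxp3-KO had 6 higher and 1 lower against WT Tconv and 0 higher against WT Treg (13 at an unadjusted p under 0.05 in limma). Fitting only the groups compared gave 1 lower in Foxp3-KO against WT Tconv, 0 and 0 against WT Treg, and 4 higher and 2 lower between the precursor groups. Array weights by group, added after seeing the data, gave 1 higher in Foxp3-KO against WT Treg and 4 lower between the precursor groups. The motif ACGTG alone was in 14 promoters. The cause of these changes was not tested beyond the smaller numbers of arrays or genes that the settings themselves fix.

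With 1 array left out, the counts against WT Tconv ranged from 2 to 9 higher and 4 to 11 lower in WT Treg, from 11 to 18 and 4 to 8 in Nr4a-TKO and from 2 to 13 and 0 to 3 in Foxp3-KO. Against WT Treg they ranged from 12 to 17 and 4 to 7 in Nr4a-TKO and from 0 to 7 and 0 to 2 in Foxp3-KO, and between the precursor groups from 10 to 13 and 3 to 10. The lone array of a group was then assumed to vary like the other groups. Shares of all genes in these fits are not given here, so the ranges show no feature particular to the members.

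Deviations of same-numbered replicates correlated, across genes, at 0.15, 0.19 and 0.26 among WT Treg, Nr4a-TKO and Foxp3-KO but at -0.03 to -0.01 between each of these and WT Tconv, so the numbers were not taken as a pairing. With the replicate number as a block, 2 members instead of 7 were called higher in Foxp3-KO against WT Treg, and no other count of members moved by over 1.5 times. The protein identity of isozymes was not run. Probes near background, such as those of P4ha2 and Vegfa, limit the size of their differences.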
